A study of Macaca mulatta with 10 samples.

Results

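Transcript levels in the limbic nuclei of the rhesus monkey thalamus were compared with those in the motor-linked nuclei. The limbic class holds the 4 arrays labelled Anterior Thalamus or Medial Thalamus, and the motor-linked class holds the 4 arrays labelled Ventral Thalamus or Centre Median. These are 8 of the 10 arrays of the series, since the 2 Pulvinar arrays belong to neither class and were left out. The labels name the nuclei and not the classes, which follow the known connections of each nucleus. Within each replicate number, a gene was kept when both limbic arrays lay above, or both lay below, both motor-linked arrays. Of 11963 genes, 1233 were kept in the same direction in replicate 1 and in replicate 2, and these are called separated genes here.

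The study asked which genes distinguish the nuclei of the dorsal thalamus. All tissue came from untreated adult monkeys (Macaca mulatta), and the labels name no allele and no agent. Total RNA from micro-punches of each nucleus was biotin-labelled and measured on Affymetrix arrays whose short probes were made for human transcripts. Each nucleus has 2 arrays, numbered 1 and 2, and the labels do not say whether the numbers stand for separate animals. The p-values of the main test measure only the spread left between these arrays once the levels of each nucleus and replicate number are taken out. They do not measure the shift between replicate numbers or the spread between the nuclei of a class. Human probes can bind monkey transcripts weakly, and a low level was not read as absence.

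The anterior nuclei connect the mammillary bodies and hippocampal formation with the cingulate cortex, and the medial thalamus includes the mediodorsal and midline nuclei that serve prefrontal and limbic cortex. The ventral nuclei carry cerebellar, pallidal and somatosensory input to sensorimotor cortex, while the centre median, one of the intralaminar nuclei, sends its axons to the striatum within basal ganglia circuits. Thalamic projection neurons in the primate are commonly divided by their calcium-binding proteins: parvalbumin marks neurons of the driving relay nuclei, while calbindin and calretinin mark neurons of midline, association and some intralaminar territories.

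Levels are log2(intensity + 1), and every difference is limbic minus motor-linked on that log2 scale unless another is named, so a negative difference means a lower level in the limbic nuclei. The test was limma with 1 coefficient per nucleus and the replicate number as a block, and a gene was called at a Benjamini-Hochberg adjusted p under 0.05 over all 11963 genes. SLC17A6, the vesicular glutamate transporter of thalamic projection neurons, lay between 10.33 and 11.54 on the 8 arrays, and TCF7L2, a Wnt-pathway transcription factor strongly expressed in thalamus, between 11.78 and 12.93. Neither was called by this test, with differences of -0.26 (SE 0.113, adjusted p = 0.365) and -0.06 (SE 0.131, adjusted p = 0.904).

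A pair of arrays stood apart. Medial Thalamus replicate 2 had a level of 12.19 for TTR, the transthyretin made by choroid plexus, against 7.17 to 8.18 on the other 7 arrays. On that array POU4F1, a transcription factor of habenular neurons, stood at 7.36 against 5.56 to 5.79 elsewhere, and HTR2C, a serotonin receptor abundant in choroid plexus that was picked out after its values were seen, stood at 8.83 against 4.52 to 6.13. Of the other choroid plexus markers, FOLR1 and KL were looked at on this array and did not stand out to that extent. FOLR1, a folate receptor, stood at 10.35, within the range of 9.06 to 10.48 of the other arrays. KL, the klotho protein, stood at 4.88, slightly above the 4.37 to 4.75 of the others. Centre Median replicate 1 had a level of 8.96 for the X-inactivation transcript XIST, against 6.70 to 7.22 on the other 3 replicate 1 arrays, and its Y-linked RPS4Y1 stood at 7.65 against 8.16 to 8.94. Pulvinar replicate 1, outside both classes, had 9.60 for XIST and 7.22 for RPS4Y1. On the replicate 2 arrays of the 4 nuclei XIST stood at 9.86 to 10.34 and RPS4Y1 at 6.96 to 7.15, so for Anterior, Medial and Ventral Thalamus the replicate numbers differed in these sex-linked transcripts, with XIST, a transcript of female cells, lower and RPS4Y1 higher in replicate 1. The replicate 1 arrays did not share one pattern, and whether Centre Median replicate 1 came from the same animal as the other 3 is not stated. With replicate 1 split by these transcripts the fit called 9 genes. That split put Centre Median replicate 1 alone in its block, so it gave the same differences as leaving that array out. It is not a separate check and does not adjust the other arrays for these transcripts. The actin 3' minus 5' signal, which rises with RNA degradation or incomplete copying, was highest on the Ventral Thalamus array of each replicate number, at 1.22 in replicate 1 and 1.64 in replicate 2, with the other arrays at -0.09 to 0.46 and 1.15 to 1.36. Its part in the differences was not tested beyond the fit with that signal as a covariate. That fit called 24 genes, 13 higher and 11 lower in the limbic nuclei, and kept 9 of the 58 calls given next. The 9 kept were CALB2, ETV1, GPX1, MC4R, NEFM, OSBPL1A, PLXNC1, SERPINI1 and WIF1. All 58 kept their sign in that fit, and 6 differences became over 1.5 times smaller: those of ZEB2, DHX29, LMO1, NACC2, CBX3 and FMR1.

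The mean of the limbic nuclei was lower than that of the motor-linked nuclei for 50 genes and higher for 8 genes, 58 called genes in all. The balance toward lower genes did not hold with the actin covariate, where 13 were higher and 11 lower. These 50, 8 and 58 genes are 0.418%, 0.0669% and 0.485% of the genes tested. The lower genes were led by PVALB, the calcium buffer parvalbumin, by the neurofilament subunits NEFM and NEFH, and by the transcription factor ETV1, and the higher genes by PLXNC1, a semaphorin receptor, and CALB2, the calcium buffer calretinin. Fold changes ran from 1.34 to 4.61 among the lower genes and from 1.42 to 2.05 among the higher genes. At an unadjusted p under 0.05, 1459 genes differed, 960 lower and 499 higher. All 58 called genes had the same sign in both replicate numbers, and 43 of them were also separated, 38 lower and 5 higher. Over all genes 10.3% were separated. The test picked the 58 from these same arrays, so this agreement follows in part from the selection and is a description.

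The count rested on the block and on single arrays. Without the replicate block, limma called 0 genes, with 106 at an unadjusted p under 0.05. Without Ventral Thalamus replicate 2 it called 0 genes as well, with 1130 at an unadjusted p under 0.05. Leaving out Medial Thalamus replicate 2, the array with high TTR, raised the count to 300 and kept all 58 genes, while leaving out Centre Median replicate 1, the array with high XIST, lowered it to 9 genes, all among the 58. Without Anterior Thalamus replicate 1 the count was 9, without Anterior Thalamus replicate 2 it was 14, without Ventral Thalamus replicate 1 it was 19 and without Medial Thalamus replicate 1 it was 119. Without Centre Median replicate 2 the count moved little, to 63, with 37 of the 58 kept. In all 8 fits that left out 1 array, all 58 genes kept their sign, and each difference stayed between 0.704 and 1.30 times its value over 8 arrays. Those fits share most arrays with the fit that picked the 58, so the kept signs are not independent evidence.

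The separated genes make up 10.3% of the genes tested, with 558 (4.66%) higher and 675 (5.64%) lower in the limbic nuclei. Separation is how these genes were chosen and is given as a description. After quantile normalisation 1134 genes were separated, 943 of them among the 1233, and the balance turned to 592 higher and 542 lower. Within replicate 1 alone 4869 genes were separated and within replicate 2 alone 4254, and 589 genes were separated in opposite directions in the replicates. The number separated in both was 1919 without Medial Thalamus replicate 2 and 1796 without Centre Median replicate 1, in each case with fewer arrays to satisfy. Among called genes, the closest to the line inside it was MAG, whose groups lay 0.01 apart in the nearer replicate, followed by FOLH1B and CALB2 at 0.02 and 0.04. Just outside it were SEPTIN4, SCG3 and PLXNC1, whose gaps were -0.0077, -0.06 and -0.095, a negative gap being an overlap. By the test, DHX29 and ATG3 lay just inside the threshold at adjusted p values of 0.0483 and 0.0497, and ANXA2P2 and GSN just outside it at 0.0505.

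**Figure D1:**
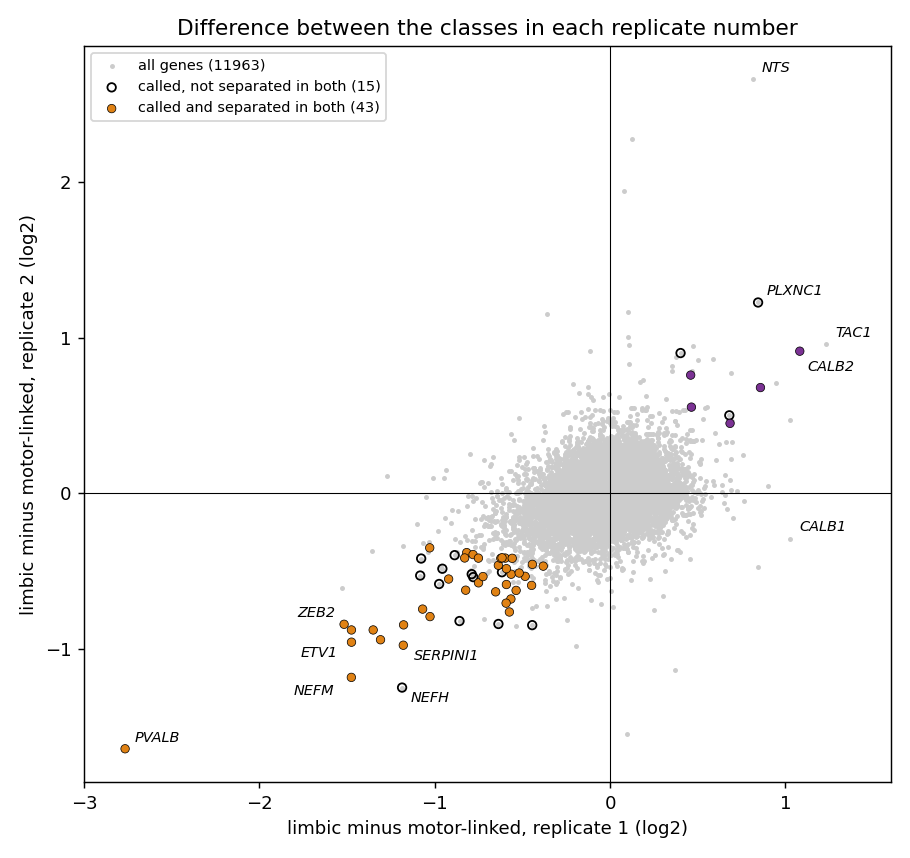
Difference in replicate 1 (horizontal axis) against difference in replicate 2 (vertical axis), limbic minus motor-linked in log2 units, with 1 point per gene. Filled orange and purple points are the 43 genes called by limma and separated, open circles are the 15 called genes that were not separated, and grey points are all 11963 genes. The called genes lie in the quadrants where both replicates have the same sign.

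Among proteins of fast-firing relay neurons, PVALB showed the largest fold change of all called genes. In replicate 1 its limbic levels were 7.91 (Anterior) and 7.94 (Medial), against 11.32 in Centre Median and 10.07 in Ventral Thalamus. In replicate 2 the corresponding levels were 9.64 and 9.25 against 10.38 and 11.80. All 4 limbic arrays lay below all 4 motor-linked arrays, and the fitted difference was -2.20 (SE 0.336), a 4.61-fold lower level with an adjusted p of 0.0231. The PVALB call ended without Anterior Thalamus replicate 1 (difference -1.95, adjusted p = 0.128), without Anterior Thalamus replicate 2 (-2.46, adjusted p = 0.0625) and without Ventral Thalamus replicate 2 (-1.95, adjusted p = 0.173). SCN1A, the sodium channel subunit that carries much of the current of fast-spiking cells, stood at 5.63 and 5.43 in the limbic arrays of replicate 1 against 6.89 and 6.88, and at 8.38 and 7.85 in replicate 2 against 8.43 and 9.56. The limbic arrays were lower within each replicate number, narrowly between Anterior Thalamus and Centre Median in replicate 2. The fitted SCN1A difference was -1.11 (SE 0.165, 2.17-fold, adjusted p = 0.022), and its call ended without Anterior Thalamus replicate 1 (adjusted p = 0.0988) and without Ventral Thalamus replicate 2 (adjusted p = 0.163). With the actin covariate in the limma fit neither gene was called. The differences there were -2.01 for PVALB (adjusted p = 0.115) and -1.06 for SCN1A (adjusted p = 0.106).

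The middle neurofilament subunit NEFM, part of the axonal scaffold of large projection neurons, stood at 9.08 and 9.02 in Anterior and Medial Thalamus of replicate 1 against 10.08 in Centre Median and 10.98 in Ventral Thalamus. In replicate 2 it stood at 9.81 and 9.85 against 10.06 and 11.96. The 4 limbic arrays did not overlap the 4 motor-linked arrays, and the difference was -1.33 (SE 0.147, 2.51-fold, adjusted p = 0.00326). Ventral Thalamus was the highest nucleus for NEFM, and Centre Median minus Ventral Thalamus was -1.40 (adjusted p = 0.00972 with limma). With both Ventral Thalamus arrays left out, the NEFM difference against Centre Median alone was -0.63. The heavy subunit NEFH was also lower, by a difference of -1.22 (SE 0.207, 2.33-fold, adjusted p = 0.0303), but its groups overlapped in replicate 2, where Anterior Thalamus stood at 9.90 and Centre Median at 9.67. Without the Ventral Thalamus arrays the NEFH difference was -0.44. NEFL, the light subunit, differed by -0.57 and was not called (adjusted p = 0.144). SPP1, a secreted phosphoprotein found in large long-axon neurons and in microglia, stood at 8.06 and 7.55 against 9.57 and 9.00 in replicate 1, and at 10.58 and 10.24 against 10.83 and 11.75 in replicate 2. The SPP1 difference was -1.18 (SE 0.201, 2.26-fold, adjusted p = 0.0303). The NEFM call ended without Ventral Thalamus replicate 2 alone (adjusted p = 0.0553). The NEFH and SPP1 calls each ended in 4 of the 8 fits that left out 1 array, at adjusted p values from 0.121 to 0.208 and from 0.0645 to 0.208. Both calls also ended in the limma fit with the actin covariate, at adjusted p values of 0.068 and 0.2.

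Another set of genes was lower in the limbic nuclei with Centre Median, rather than Ventral Thalamus, as the highest nucleus. ETV1, an ETS-family transcription factor, had the smallest adjusted p with MC4R and CALB2. Its level was 8.19 and 8.31 in the limbic arrays of replicate 1 against 10.06 in Centre Median and 9.39 in Ventral Thalamus, and 8.77 and 8.65 in replicate 2 against 9.78 and 9.56. All limbic arrays lay below all motor-linked arrays, and the difference was -1.22 (SE 0.128, 2.32-fold, adjusted p = 0.00318). Its call ended without Ventral Thalamus replicate 2, at an adjusted p of 0.0515, and held in the other 7 such fits. The 4 further probe sets annotated to ETV1 had differences of -0.21 to -0.56, all of the same sign.

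CRYM, the thyroid hormone-binding protein mu-crystallin, stood at 11.11 and 10.14 in the Centre Median arrays, while the limbic arrays ranged from 8.65 to 8.99 and the Ventral Thalamus arrays stood at 9.18 and 9.31. The CRYM difference was -1.13 (SE 0.166, 2.18-fold, adjusted p = 0.022), and Centre Median exceeded Ventral Thalamus by 1.38 (adjusted p = 0.0304). SERPINI1, which encodes the axonally secreted protease inhibitor neuroserpin, showed the same order, with Centre Median at 11.14 and 10.63, Ventral Thalamus at 9.64 and 9.55, and limbic arrays from 8.96 to 9.45. Its difference was -1.08 (SE 0.125, 2.11-fold, adjusted p = 0.00407), and Centre Median exceeded Ventral Thalamus by 1.29 (adjusted p = 0.0058). The class difference of both genes therefore rested more on Centre Median than on Ventral Thalamus. The CRYM call ended without Anterior Thalamus replicate 1 (difference -0.97, adjusted p = 0.0916), without Centre Median replicate 1 (-0.88, adjusted p = 0.0706) and without Ventral Thalamus replicate 2 (adjusted p = 0.163). The SERPINI1 call ended without Ventral Thalamus replicate 2 alone (-1.04, adjusted p = 0.0668).

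OSBPL1A, an oxysterol-binding protein of late endosomes, was lower in the limbic nuclei against both motor-linked nuclei by similar amounts. Its level was 8.76 and 8.46 against 9.64 and 9.63 in replicate 1, and 9.94 and 9.72 against 10.51 and 10.74 in replicate 2. The difference was -0.91 (SE 0.102, 1.88-fold, adjusted p = 0.00326), and the call ended without Ventral Thalamus replicate 2 alone (adjusted p = 0.0553). ZEB2, a zinc-finger transcription factor of neurons and glia, stood at 6.37 and 5.29 against 7.04 and 7.65 in replicate 1, and at 9.22 and 9.35 against 9.90 and 10.36 in replicate 2. Its shift between replicate numbers was larger than its class difference of -1.18 (SE 0.182, 2.27-fold, adjusted p = 0.0231), so the arrays separated only within a replicate number. With the actin covariate the ZEB2 difference was -0.70 (adjusted p = 0.137). MICAL2, an enzyme that oxidises actin filaments, differed by -1.01 (2.02-fold, adjusted p = 0.0346), and CDS1, a synthase of phospholipid precursors, by -0.91 (1.87-fold, adjusted p = 0.0231). KCNJ2, an inwardly rectifying potassium channel, differed by -0.72 (adjusted p = 0.0297), DHX29, an RNA helicase of translation initiation, by -0.69 (adjusted p = 0.0483), and RAPGEF5, an exchange factor for Rap proteins, by -0.67 (adjusted p = 0.0297). With the actin covariate the DHX29 difference was -0.38 (adjusted p = 0.471). The calls of ZEB2, MICAL2, CDS1, KCNJ2, DHX29 and RAPGEF5 each ended in 5 of the 8 fits that left out 1 array, in every case including those without Centre Median replicate 1 and without either Ventral Thalamus array. The highest adjusted p in those fits was 0.218 for ZEB2, 0.21 for MICAL2, 0.192 for CDS1, 0.23 for KCNJ2, 0.356 for DHX29 and 0.205 for RAPGEF5.

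**Figure D2:**
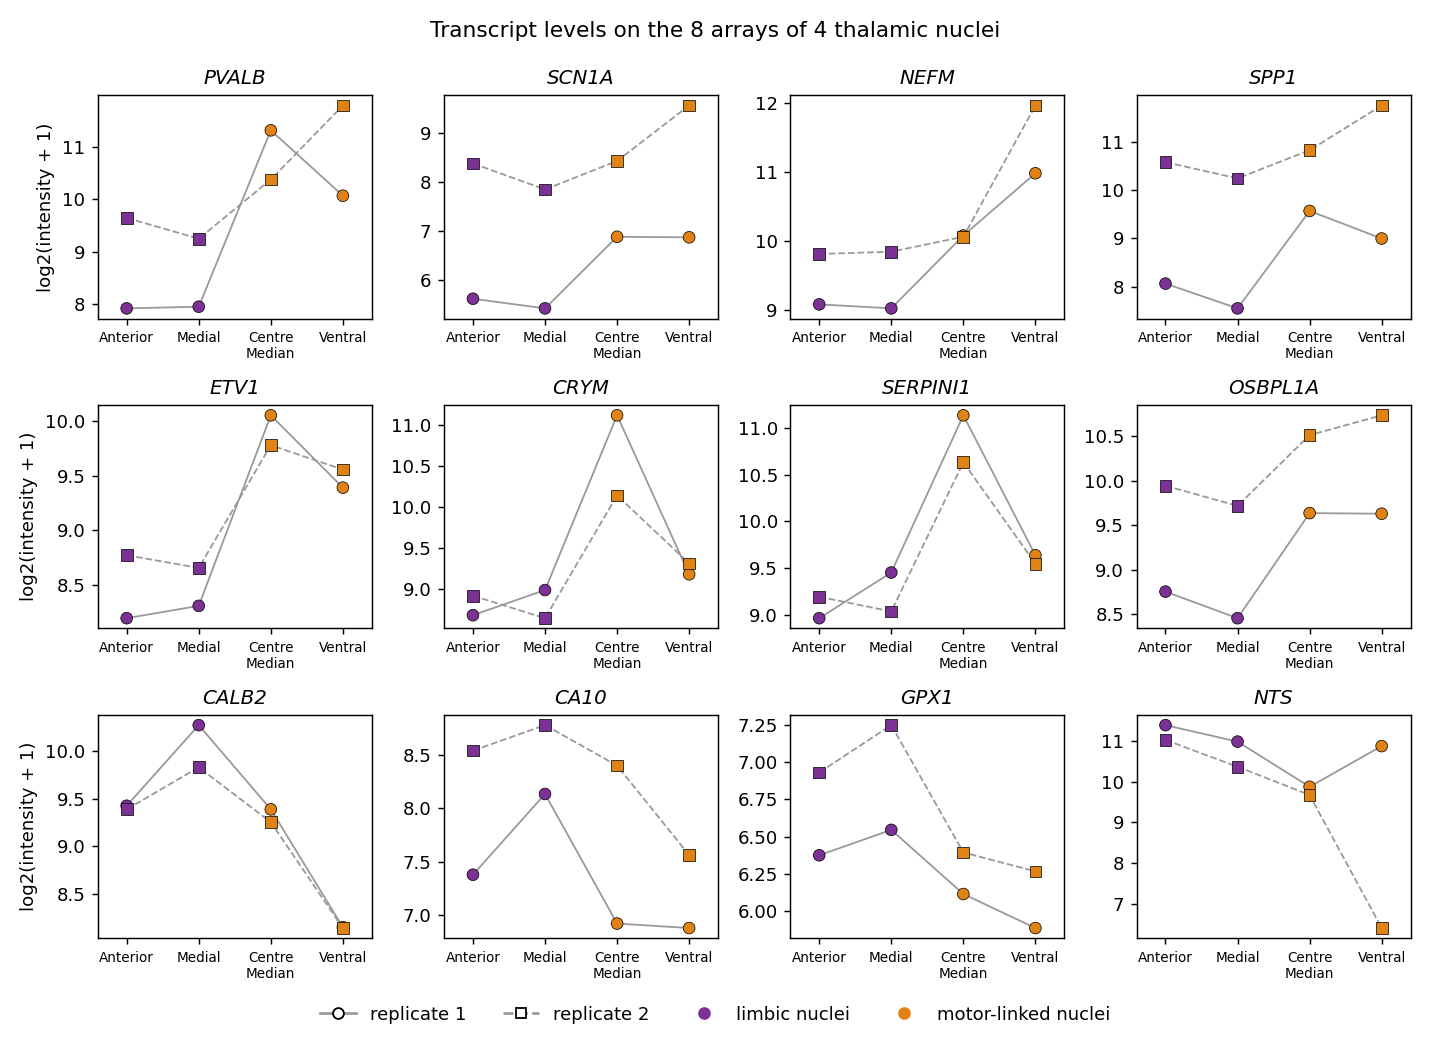
Level of 11 called genes and of NTS, which was not called, on each of the 8 arrays, in log2(intensity + 1), with limbic nuclei in purple, motor-linked nuclei in orange, replicate 1 as circles and replicate 2 as squares. For PVALB, NEFM, ETV1, CRYM and SERPINI1 all 4 limbic arrays lie below all 4 motor-linked arrays, and for SCN1A, SPP1 and OSBPL1A the order holds within a replicate number.

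In the fit without the actin covariate, fewer genes were called higher than lower in the limbic nuclei. CALB2 stood at 9.43 in Anterior Thalamus and 10.28 in Medial Thalamus of replicate 1, against 9.39 in Centre Median and 8.15 in Ventral Thalamus, and at 9.39 and 9.83 against 9.25 and 8.14 in replicate 2. Medial Thalamus was the highest and Ventral Thalamus the lowest nucleus in both replicates, while Anterior Thalamus exceeded Centre Median by only 0.04 in replicate 1. The difference was 1.00 (SE 0.103, 2.00-fold, adjusted p = 0.00318). Centre Median exceeded Ventral Thalamus by 1.18 (adjusted p = 0.0036), and with both Ventral Thalamus arrays left out the CALB2 difference was 0.41. The CALB2 call ended without Ventral Thalamus replicate 2 alone (difference 1.05, adjusted p = 0.0515).

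CALB1, the calbindin gene, was not called, with a difference of 0.37 (SE 0.303, adjusted p = 0.696). Its replicates disagreed, at 1.03 in replicate 1 and -0.29 in replicate 2, and leaving out Centre Median replicate 1 turned the difference to -0.17. The 3 calcium-binding proteins by which thalamic territories are commonly divided thus gave a lower PVALB, a higher CALB2 and no called difference of CALB1.

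The other 4 separated genes called higher were CA10, GPX1, SYT17 and GPX3. CA10, a secreted carbonic anhydrase-related protein that binds neurexins, stood at 7.38 and 8.14 against 6.92 and 6.88 in replicate 1 and at 8.54 and 8.78 against 8.40 and 7.56 in replicate 2, a difference of 0.77 (SE 0.133, 1.7-fold, adjusted p = 0.0333). GPX1 and GPX3, the cellular and secreted glutathione peroxidases that reduce peroxides, differed by 0.61 (SE 0.0969, 1.53-fold, adjusted p = 0.0271) and 0.51 (SE 0.0904, 1.42-fold, adjusted p = 0.0346). GPX1 stood at 6.37 and 6.55 against 6.11 and 5.89 in replicate 1 and at 6.93 and 7.25 against 6.39 and 6.27 in replicate 2, with Medial Thalamus highest and Ventral Thalamus lowest in each. A second GPX3 probe set differed by 0.45. SYT17, a synaptotagmin family member, ranged from 7.04 to 7.72 on the limbic arrays and from 6.64 to 6.85 on the motor-linked arrays with no overlap, a difference of 0.57 (SE 0.101, 1.48-fold, adjusted p = 0.0346). The calls of CA10 and SYT17 ended in 5, and those of GPX1 and GPX3 in 6, of the 8 fits that left out 1 array, with Centre Median replicate 1 and both Anterior and both Ventral Thalamus arrays among them, at adjusted p values up to 0.23, 0.297, 0.195 and 0.23. The separated genes next in order of p in this direction were not called: ANXA2P2, an annexin pseudogene whose probes may also bind the parent gene, at 0.48 (adjusted p = 0.0505), MEF2C, an activity-linked transcription factor, at 0.55 (adjusted p = 0.0623), and NID1, a basement membrane protein, at 0.40 (adjusted p = 0.0809).

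For 15 called genes the class difference came with overlapping groups in at least 1 replicate, and for several of them 1 nucleus stood alone. MC4R, the melanocortin receptor of energy balance, stood at 8.25 and 8.17 in the Centre Median arrays and between 6.35 and 6.54 on the other 6 arrays. Its class difference was -0.84 (SE 0.0893, 1.79-fold, adjusted p = 0.00318), Centre Median exceeded Ventral Thalamus by 1.77 (adjusted p = 0.000123), and without the Centre Median arrays the class difference was 0.05. TPBG, a Wnt-modulating membrane glycoprotein, and LMO1, a LIM-domain cofactor, followed the same order, with class differences of -0.78 (adjusted p = 0.0171) and -0.64 (adjusted p = 0.0422) and excesses of Centre Median over Ventral Thalamus of 1.56 and 1.37. Without Centre Median their class differences were 0.003 and 0.04, and with the actin covariate that of LMO1 was -0.39 (adjusted p = 0.433).

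Ventral Thalamus stood highest for OPN3, an opsin family member, for STK39, a kinase that regulates chloride transporters, and for PPARGC1A, the coactivator of mitochondrial biogenesis. Mean OPN3 was 9.04 in Ventral Thalamus against 7.77 in Centre Median and 8.12 and 7.38 in the anterior and medial nuclei, and its class difference was -0.65 (adjusted p = 0.0272). STK39 differed by -0.56 between the classes (adjusted p = 0.0272), and by 0.03 without the Ventral Thalamus arrays. PPARGC1A differed by -0.66 (1.58-fold, adjusted p = 0.0272), with a mean of 7.66 in Ventral Thalamus and of 6.46 to 6.83 in the other nuclei. Among the higher genes, PLXNC1 stood at 7.47 and 8.72 against 7.38 and 7.11 in replicate 1, and at 8.67 and 9.73 against 8.77 and 7.18 in replicate 2, so that Centre Median exceeded Anterior Thalamus in replicate 2. The PLXNC1 difference was 1.04 (SE 0.171, 2.05-fold, adjusted p = 0.029). WIF1, a secreted Wnt inhibitor, and NPTX2, a pentraxin that clusters glutamate receptors, differed by 0.65 (adjusted p = 0.0272) and 0.59 (adjusted p = 0.0346). WIF1 differed by 0.08 without the Ventral Thalamus arrays, and NPTX2 by -0.02 without Centre Median. Apart from MC4R, whose call ended only without Ventral Thalamus replicate 2 (adjusted p = 0.0515), and PLXNC1, whose call ended in 4 of these fits, the genes of this and the preceding paragraph lost their calls in 5 of the 8 fits that left out 1 array.

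The nuclei within a class were compared in the same way. Anterior Thalamus minus Medial Thalamus gave 0 called genes with limma, with 591 at an unadjusted p under 0.05 and a smallest adjusted p of 0.156. Centre Median minus Ventral Thalamus gave 58 called genes (0.485%), 26 higher and 32 lower in Centre Median, and 0 without the replicate block, where 183 had an unadjusted p under 0.05. The count happened to equal that of the class comparison, and 13 genes were called in both. Whether the motor-linked nuclei differ from each other more than the limbic nuclei do was not tested. Among the 38 separated genes called lower in the limbic nuclei, the Ventral Thalamus mean was the highest of the 4 nuclei for 24 and the Centre Median mean for 14. Medial Thalamus had the lowest mean for 31 of them, and for 20 Ventral Thalamus was highest and Medial Thalamus lowest. For genes so chosen the highest mean must lie in a motor-linked nucleus and the lowest in a limbic nucleus. The same counts were not taken over all separated genes, so these describe only the 38.

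**Figure D3:**
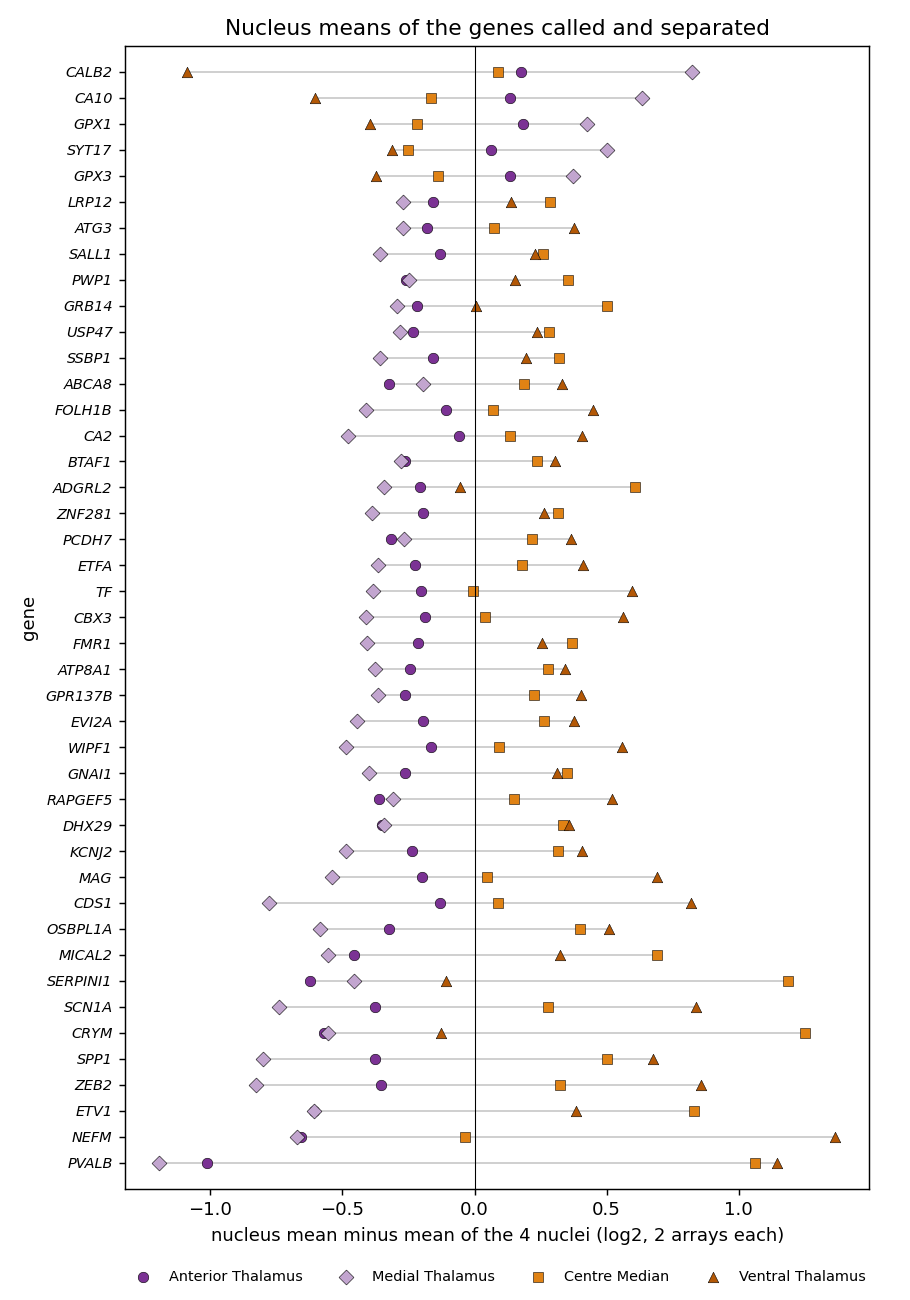
Mean level of each of the 43 called and separated genes in the 4 nuclei, 2 arrays each, drawn relative to the mean of the 4 nuclei in log2 units. Genes such as NEFM stand highest in Ventral Thalamus, genes such as CRYM and SERPINI1 highest in Centre Median, and CALB2 is highest in Medial Thalamus and lowest in Ventral Thalamus.

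The genes were next described by function and cell type, in 33 lists. Counts in a list are set beside the background given above, and medians beside the median over all genes of 0.0076, with 47.7% of genes lower in the limbic nuclei. Among the 14 measured genes of the relay profile, which collects markers of parvalbumin-type relay neurons, 6 were called lower and 0 higher: PVALB, NEFM, NEFH, SPP1, SCN1A and PPARGC1A. The list median was -0.62, and 13 of the 14 differences were negative. VAMP1, the synaptic vesicle protein of fast synapses, differed by -0.69 and was just outside the threshold (adjusted p = 0.0505). The relay profile was chosen with results for these arrays known, so its count is not independent evidence. Its median was -0.19 without the Ventral Thalamus arrays and -1.10 without the Centre Median arrays. The list of neurofilaments and axonal cytoskeleton, which overlaps it, had 2 of 24 members called lower, NEFM and NEFH, and a median of -0.15.

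The list of midline and intralaminar profile genes had 2 of 16 members called higher, CALB2 and NPTX2, and 1 called lower, CRYM, with a median of 0.16. Among 21 calcium-binding proteins CALB2 was called higher and PVALB lower, and the other 19 were not called.

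Most myelin genes had lower values in the limbic nuclei. Of 22 measured oligodendrocyte and myelin genes, 3 were called lower and 0 higher, 8 were separated with a lower level, and 20 had a negative difference, with a median of -0.41. The replicate medians were -0.34 and -0.36. MAG, the myelin-associated glycoprotein that faces the axon, stood at 7.93 and 7.76 against 8.40 and 9.13 in replicate 1 and at 8.30 and 7.79 against 8.31 and 8.88 in replicate 2, a difference of -0.74 (SE 0.11, 1.67-fold, adjusted p = 0.022). A second MAG probe set differed by 0.05 and so had the opposite sign. TF, the iron carrier transferrin made by oligodendrocytes, stood at 7.89 and 7.65 against 8.08 and 8.64, and at 8.02 and 7.89 against 8.22 and 8.87, a difference of -0.59 (SE 0.0877, 1.5-fold, adjusted p = 0.022). MOBP, a structural protein of compact myelin, differed by -0.74 (adjusted p = 0.0346), but in replicate 1 Anterior Thalamus at 11.16 exceeded Centre Median at 11.03. MBP, the myelin basic protein, differed by -0.43 and was not called (adjusted p = 0.207), as was ENPP2 at -0.87 (adjusted p = 0.12), whose difference with the actin covariate was -0.37. The list median with that covariate was -0.35. The intensities of the 22 genes summed to 11152 to 19729 on the limbic arrays and to 18866 to 27533 on the motor-linked arrays, so the ranges overlapped. In bulk tissue, fewer cells of a type and less RNA per cell cannot be told apart. The myelin median was -0.22 without the Ventral Thalamus arrays, and 7 members were called lower without Medial Thalamus replicate 2. The MAG call ended in 4, and the TF and MOBP calls in 5, of the 8 fits that left out 1 array, each of them without Centre Median replicate 1 and without either Ventral Thalamus array, at adjusted p values up to 0.192, 0.183 and 0.212. The part of these markers in the neuronal gene differences was not tested.

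The markers of the other cell types had no member called by limma. Of 20 astrocyte markers 0 were called and 3 had an unadjusted p under 0.05, with a median of -0.0013, and GFAP, the astrocyte filament, differed by 0.63 (adjusted p = 0.178) and by -0.09 without the Medial Thalamus arrays. Of 9 choroid plexus and ependymal markers 0 were called and 1 had an unadjusted p under 0.05, but all 9 differences were positive, with a median of 0.15 that was 0.02 without Medial Thalamus replicate 2. Their summed intensity ranged from 1576 to 6793 on the limbic arrays and from 1558 to 2335 on the motor-linked arrays. Of 10 habenular markers 1 had an unadjusted p under 0.05 and 9 had a positive difference, with replicate medians of -0.0058 and 0.34. The 15 microglial, 14 vessel, 8 meningeal, 10 GABA-neuron and 9 striatal markers gave 0 calls, with 2, 0, 1, 4 and 1 at an unadjusted p under 0.05, and GAD1, the enzyme of GABA synthesis, differed by -0.56 (adjusted p = 0.0786). Of the 10 GABA-neuron markers, 5 differences were positive and 5 negative, with a median of 0.0091, and the 4 at an unadjusted p under 0.05 were all lower. The further GAD1 probe sets differed by 0.013 and -0.033. The GAD1 difference was -0.08 without the Medial Thalamus arrays, whose mean of 9.06 was the lowest, against 9.90 to 10.29 in the other 3 nuclei, and GAD1 was called lower without Medial Thalamus replicate 2.

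**Figure D4:**
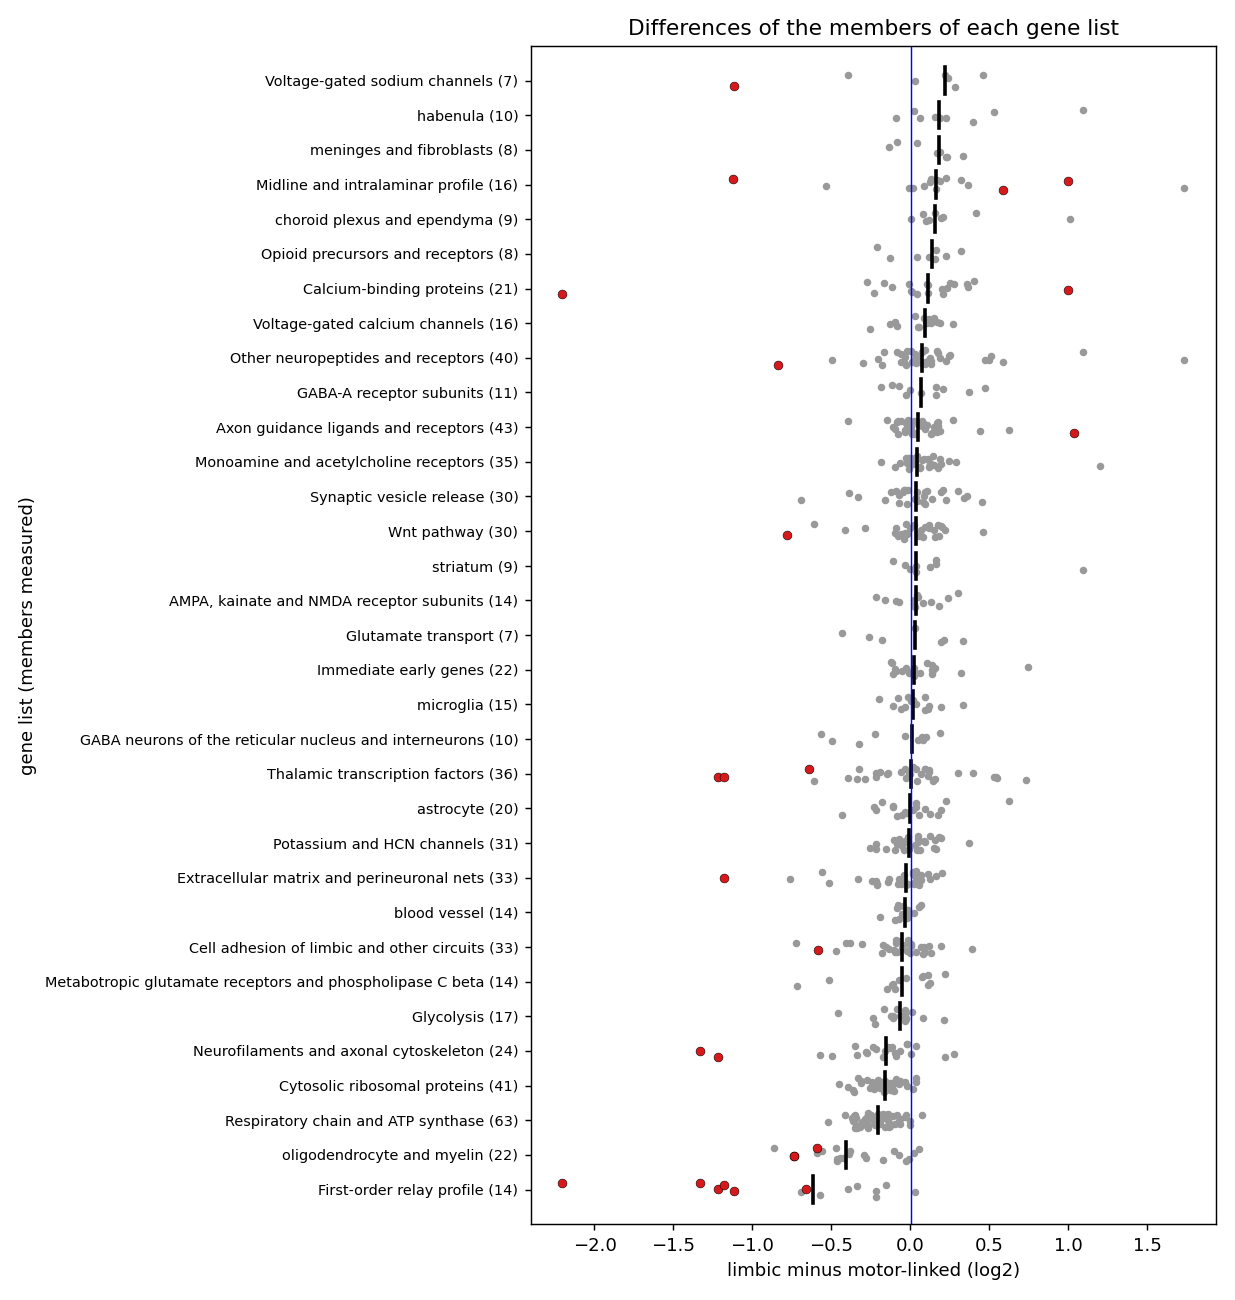
Difference of every measured member of the 33 gene lists, limbic minus motor-linked in log2 units, with 1 row per list. Red points are genes called by limma, the black bar is the list median and the blue line is the median of all genes. The relay and myelin medians lie farthest below the blue line, at -0.62 and -0.41.

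Lists of energy metabolism and translation had negative medians and 0 members called by limma. Of 63 measured subunits of the respiratory chain and ATP synthase, 0 were called and 24 had an unadjusted p under 0.05 with a lower level. Negative differences were found for 61 of the 63, with a median of -0.20, and the median was -0.06 without the Ventral Thalamus arrays. ATP5PF, a coupling factor of ATP synthase, differed by -0.52 (adjusted p = 0.0911), and by -0.26 with the actin covariate. Of 41 cytosolic ribosomal proteins 0 were called and 8 had an unadjusted p under 0.05, all lower, while 38 had negative differences and the median was -0.16, with replicate medians of -0.24 and -0.09 and a value of -0.05 after quantile normalisation. RPS25, of the small ribosomal subunit, differed by -0.45 (adjusted p = 0.142), and by -0.20 with the actin covariate. With that covariate the list medians were -0.23 for the respiratory and -0.07 for the ribosomal genes. Of 17 glycolytic enzymes 0 were called and 2 had an unadjusted p under 0.05, with a median of -0.06 that ranged from -0.20 without Centre Median to 0.06 without Ventral Thalamus.

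Transcription factors known from thalamic development had differences in both directions. Of 36 measured, 3 were called lower, ETV1, ZEB2 and LMO1, and 0 higher, with 18 positive and 18 negative differences and a median of 0.0073. GBX2, a homeobox factor of thalamic neurons, differed by 0.73 (adjusted p = 0.215). ZIC1 differed by 0.55 (adjusted p = 0.108). Without Medial Thalamus replicate 2 the list held 6 called lower and 2 called higher, GBX2 and MEF2C.

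Among 40 neuropeptides and their receptors outside the opioid system, MC4R was called lower and 0 were called higher, and 27 differences were positive. NTS, the precursor of neurotensin, had one of the highest levels of this list, at 11.39 and 10.98 against 9.87 and 10.87 in replicate 1, and at 11.02 and 10.36 against 9.67 and 6.40 in replicate 2. The limbic arrays were higher in both replicates, but the Ventral Thalamus arrays differed by more than 4 log2 units from each other, and the difference of 1.74 (SE 0.525) was not called (adjusted p = 0.185). TAC1, the precursor of substance P, stood at 6.53 and 4.65 against 4.61 and 4.11, and at 5.22 and 5.76 against 4.74 and 4.33, a difference of 1.09 (SE 0.261, adjusted p = 0.104). TRH, the precursor of thyrotropin-releasing hormone, differed by 0.51 (adjusted p = 0.0984). TAC1, TRH, ADCYAP1 and CRH were called higher in the fit without Medial Thalamus replicate 2.

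Lists of ion channels and of receptors for transmitters had 1 called member. Of 7 voltage-gated sodium channel genes SCN1A was called, while SCN2A, SCN3A and SCN8A differed by 0.28, 0.46 and -0.40 and were not. By limma 0 of 16 calcium channel genes, 0 of 31 potassium and HCN channel genes and 0 of 11 GABA-A receptor subunits were called, with 2, 2 and 3 at an unadjusted p under 0.05. Among 14 AMPA, kainate and NMDA receptor subunits and 14 metabotropic glutamate receptor and phospholipase C genes 0 were called, with 2 in each list at an unadjusted p under 0.05. KCNJ2, called lower above, was not on the potassium channel list. GRM3, a metabotropic glutamate receptor that lowers transmitter release, differed by -0.72 (adjusted p = 0.0683). The 35 monoamine and acetylcholine receptors had 0 calls, 4 at an unadjusted p under 0.05 and 4 separated members, all higher, and the 8 opioid genes had 0 calls and 1 at an unadjusted p under 0.05. Among 43 axon guidance genes PLXNC1 was called higher, and among 33 adhesion genes the protocadherin PCDH7 was called lower, with a difference of -0.58 (adjusted p = 0.0429). BDNF, the neurotrophin, stood among the 22 immediate early genes, of which 0 were called and 2 had an unadjusted p under 0.05, and differed by 0.75 (adjusted p = 0.101). In all, 21 of the 33 lists had 0 called members.

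Of the 58 called genes, 22 had at least 1 further probe set. Of those 34 further probe sets, 24 had the same sign as the one used and 10 the opposite sign. The other NEFH, OSBPL1A and MOBP probe sets differed by -0.77, -0.47 and -0.48, and those of PLXNC1 by 0.10 and 0.37. TF had further probe sets at -0.62, -0.10 and 0.0022. Those of opposite sign belonged to ATP8A1, CDS1, LRP12, MAG, MICAL2, PCDH7, SEPTIN4, SSBP1, TF and WIPF1, at differences of 0.0022 to 0.13. For CDS1 the further probe set stood at 0.0091, for MICAL2 they stood at -0.17 and 0.06, and for PCDH7 at -0.68, -0.02 and 0.0070. When all probe sets of a gene were averaged, 7 genes were called, all among the 58.

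**Figure D5:**
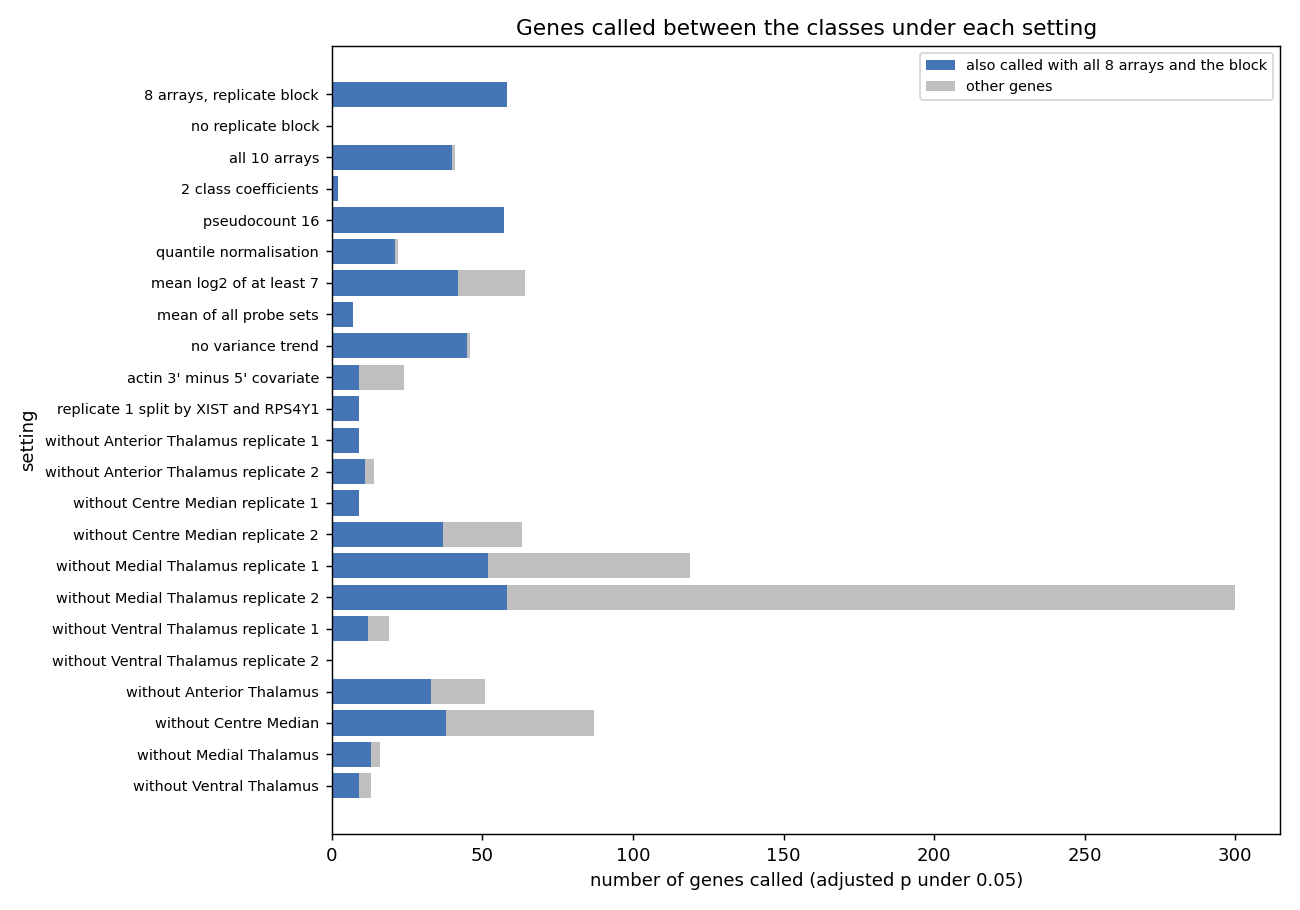
Number of genes called by limma under each setting, with 1 bar per setting starting at 0. Blue marks genes also called over the 8 arrays with the replicate block and grey marks other genes. The counts run from 0, without the block and without Ventral Thalamus replicate 2, to 300 without Medial Thalamus replicate 2.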

How the data were processed

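The deposited values are intensities on a linear scale. The authors used RMA, with no version named in the submitters' processing notes, which corrects background, normalises arrays to one another and combines the probes of a probe set. Whether all arrays were processed together is not given in the sources used here. The lowest intensity was 11.97 to 12.2 on replicate 1 arrays and 9.49 to 9.55 on replicate 2 arrays, with medians of 98.9 to 100.6 and 94.2 to 97.6. Of 22283 probe sets, 68 controls, 2107 not listed in the annotation and 1043 assigned to several genes were left out. The remaining 19065 gave 11963 genes, and for the 4310 genes with several probe sets the one with the largest average level on the 10 arrays was used. Low values were not filtered. No count depth applies to arrays, whose number limits the precision. No genome build comes with the values, so no coordinates are given.

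Values were taken as log2(intensity + 1), with a pseudocount of 1. limma 3.58.1 in R 4.3.3 fitted 8 arrays with 1 coefficient per nucleus, the replicate number as a block and a variance trend, leaving 3 residual and 8.78 prior degrees of freedom. The contrast was the mean of Anterior and Medial Thalamus minus the mean of Centre Median and Ventral Thalamus, and Benjamini-Hochberg adjustment covered all genes. The block was used because the comparison is defined within replicate numbers. The labels do not state what the numbers share. The differences between replicate 2 and replicate 1 correlated across genes at 0.759 to 0.784 over the 6 pairs of nuclei, and the numbers were treated as paired on that basis, although Centre Median replicate 1 differed from the other 3 replicate 1 arrays in XIST and RPS4Y1. The script was tested on simulated data.

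The members, the gene lists and the alternatives were chosen with earlier results of these data known. Named genes were, in each direction, the 15 called and separated genes with the largest difference, filled to 8 by the smallest p where fewer were called, called list members, the separated list members with the largest difference in each direction, and 8 fixed markers (CALB1, CALB2, PVALB, GFAP, MBP, SLC17A6, TCF7L2 and GAD1). Other genes were named after their values were seen. Alternatives were the fit without the block, 2 class coefficients, all 10 arrays, a pseudocount of 16, quantile normalisation, a mean level of at least 7, the mean of all probe sets, no variance trend, the actin signal as a covariate, replicate 1 split by XIST and RPS4Y1, and leaving out each array or nucleus. The split of replicate 1 gives the same differences as leaving out Centre Median replicate 1, which is alone in its block there. Figures were drawn with matplotlib 3.10.9.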

Additional observations from a re-analysis of the deposited data

Results flagged for a closer look

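For 13 of the 58 called genes the motor-linked nuclei also differed from each other, tested as Centre Median minus Ventral Thalamus in the same limma fit. Centre Median was higher for MC4R by 1.77 (adjusted p = 0.000123), TPBG by 1.56 (0.00117), CRYM by 1.38 (0.0304), LMO1 by 1.37 (0.0036), SERPINI1 by 1.29 (0.0058), CALB2 by 1.18 (0.0036) and WIF1 by 1.13 (0.00566). Ventral Thalamus was higher for NEFH, at -1.56 (0.0436), NEFM, at -1.40 (0.00972), OPN3, at -1.27 (0.0036), NPTX2, at -1.23 (0.0036), STK39, at -1.19 (0.00205) and PPARGC1A, at -0.83 (0.0381). For these genes the class mean covers nuclei with unequal levels.

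In 3 of 174 groups of 4 arrays, 1 array lay far from the other 3, measured as its gap to the nearest array over the whole range. MC4R in Anterior Thalamus replicate 2 stood at 6.35 with the other limbic arrays at 6.52 to 6.54, a ratio of 0.916. EFNB3, an ephrin, stood at 7.36 in Ventral Thalamus replicate 2, a ratio of 0.909. PLXNC1 stood at 8.77 in Centre Median replicate 2 with the other motor-linked arrays at 7.11 to 7.38, a ratio of 0.834. With 4 exchangeable arrays about 5 in 100 groups would be picked out by chance, but each group here mixes 2 nuclei and 2 replicate numbers, which that rate does not take into account.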

How the results depend on the processing

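The 58 calls became 0 without the replicate block (limma, 106 genes at an unadjusted p under 0.05), 2 with 2 class coefficients, 22 after quantile normalisation, 7 with the mean of all probe sets, 24 (13 higher, 11 lower) with the actin covariate and 9 with replicate 1 split by XIST and RPS4Y1, and stayed between 41 and 64 with all 10 arrays, a pseudocount of 16, a mean level of at least 7 or no variance trend. Leaving out 1 array gave 0 to 300 calls, and leaving out a nucleus gave 51 without Anterior Thalamus, 87 without Centre Median, 16 without Medial Thalamus and 13 without Ventral Thalamus. The separated count was 749 with a mean level of at least 7, 3380 without Anterior Thalamus, 3910 without Centre Median, 3083 without Medial Thalamus and 3041 without Ventral Thalamus. Leaving out the Medial or Centre Median array that stood apart, an alternative chosen after seeing the data, gave 1796 to 1919. These rules have fewer genes or arrays to satisfy. The split of replicate 1 gave the same differences as leaving out Centre Median replicate 1, so those settings are not separate checks. Centre Median minus Ventral Thalamus fell from 58 calls to 0 without the replicate block (limma, 183 genes at an unadjusted p under 0.05).

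The sign of a called gene turned for LMO1 (0.043), MC4R (0.047), NPTX2 (-0.023) and TPBG (0.0029) without Centre Median and for STK39 (0.035) without Ventral Thalamus. Of genes not called, TCF7L2 turned to 0.0091 after quantile normalisation, 0.00039 with the mean of all probe sets, 0.11 with the actin covariate, 0.13 without Medial Thalamus and 0.024 without Ventral Thalamus. Leaving out 1 array gave TCF7L2 values from -0.15 to 0.029, positive without replicate 1 of Medial or of Ventral Thalamus. CALB1 turned to -0.18 with the actin covariate, -0.17 with the split, and ranged from -0.17 (without Centre Median replicate 1) to 0.90 when 1 array was left out. GFAP turned to -0.095 without Medial Thalamus and SLC17A6 to 0.019 without Ventral Thalamus. The causes were not tested. Of 33 lists, 14 kept the sign of the median in all settings, among them the relay (-1.10 to -0.19), myelin (-0.52 to -0.21), respiratory (-0.35 to -0.06) and ribosomal (-0.24 to -0.05) lists.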

Other observations

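The Pulvinar, the visual association nucleus left out of both classes, was set beside the 43 genes that were called and separated. Its mean lay in the gap between the nearest limbic and the nearest motor-linked nucleus mean for 27 of them. How many of all genes did so was not counted. The Pulvinar mean was nearer to the limbic than to the motor-linked class mean for 13 of the 43 genes. That held for 12 of the 38 genes lower in the limbic nuclei and 1 of the 5 higher, against 44.3% of all genes.

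The genes lower in the limbic nuclei also shifted between replicate numbers. Their median difference, replicate 2 minus replicate 1, was 0.81 over the 50 genes against -0.04 over all genes, and 43 of the 50 were higher in replicate 2, against 44.5% of all genes. What the replicate numbers share is not stated on the labels, and the part of this shift in the class differences was not tested.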
